A study of Mus musculus with 12 samples.

Results

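A set of 10 noncoding RNAs was followed through a block of transcription in leukemic cells. It comprises 7 host genes of small nucleolar RNAs (snoRNAs), namely Gas5, Snhg1, Snhg5, Snhg6, Snhg8, Snhg12 and Epb41l4aos, the nuclear long noncoding RNAs Malat1 and Neat1, and Rpph1, the RNA of the enzyme RNase P. They were taken by gene symbol from a table of 24589 genes, and all 10 were found in it. The 12 libraries came from NRAS/AE9a leukemic cells, a mouse model of acute myeloid leukemia whose name refers to NRAS and to AML1-ETO9a, a fusion oncoprotein. Cells were Tet2 knockout (KO) or wild type (WT), and both received actinomycin D, an inhibitor of transcription, at 5 µg/ml for 0, 4 or 8 h. Each of the 6 groups has 2 libraries. All cells were grown with SCF, IL-3, IL-6, G418 and puromycin. Which allele was knocked out, by what means and in how many clones is not given in the sources used here, so genotype cannot be told apart from other differences between the lines. The labels do not state that libraries of a group are separate cultures, and the p-values then reflect library-to-library spread that may be technical. The list was chosen by RNA class with earlier results of these data known, and Gas5, Epb41l4aos and Rpph1 were selected on measured values, their TPM changes over time in WT cells. Changes over time in WT cells are therefore given as a description, with no test, and so are the KO against WT values of those 3 RNAs.

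A snoRNA host gene is transcribed and spliced, and its introns are trimmed to snoRNAs, which guide chemical modification of ribosomal and spliceosomal RNA. The spliced exons of several hosts, Gas5 among them, reach the cytoplasm, are bound by ribosomes and are broken down by nonsense-mediated decay. Many host genes start transcription within a run of pyrimidines, as ribosomal protein genes do. Malat1 gathers at nuclear speckles and Neat1 is the scaffold of paraspeckles. RNase P, the enzyme whose RNA is Rpph1, cuts precursor tRNAs and also the 3′ ends of Malat1 and the long form of Neat1. Rpph1 itself is made by RNA polymerase III, the other RNAs by RNA polymerase II.

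In GENCODE M21 (GRCm38) the spliced host RNAs were 430 to 1004 nt long in the transcripts used. Gas5 (chr1:161034422-161038539, plus strand) holds 9 snoRNA loci, all in introns, and its transcript used here has 12 exons and 502 nt. Snhg1 (chr19:8723475-8726443, plus strand) holds 8 snoRNA loci in the introns of a 10-exon transcript of 605 nt. Snhg12 (chr4:132308623-132311024, plus strand) has 4 loci, of which 3 lie in introns and 1 within an exon of the transcript drawn. Snhg5 (chr9:88521050-88522929, minus strand) has 2 loci. Snhg6 (chr1:9941959-9944118, minus strand), Snhg8 (chr3:123507552-123508404, minus strand) and Epb41l4aos (chr18:33794892-33795986, plus strand) have 1 each. Malat1 (chr19:5795690-5802672, minus strand), at 6983 nt, and Neat1 (chr19:5824708-5845478, minus strand), at 20771 nt, are unspliced in the transcripts used and hold no snoRNA locus. Rpph1 (chr14:50807449-50807767, minus strand) is a single exon of 319 nt, annotated as a ribozyme. It lies on the same strand as the mRNA gene Ccnb1ip1, and the 2 genes overlap by 284 bases. Ccnb1ip1 was listed at 0 in 11 libraries and at 0.18 TPM in KO at 4 h, replicate 1.

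**Figure D1:**
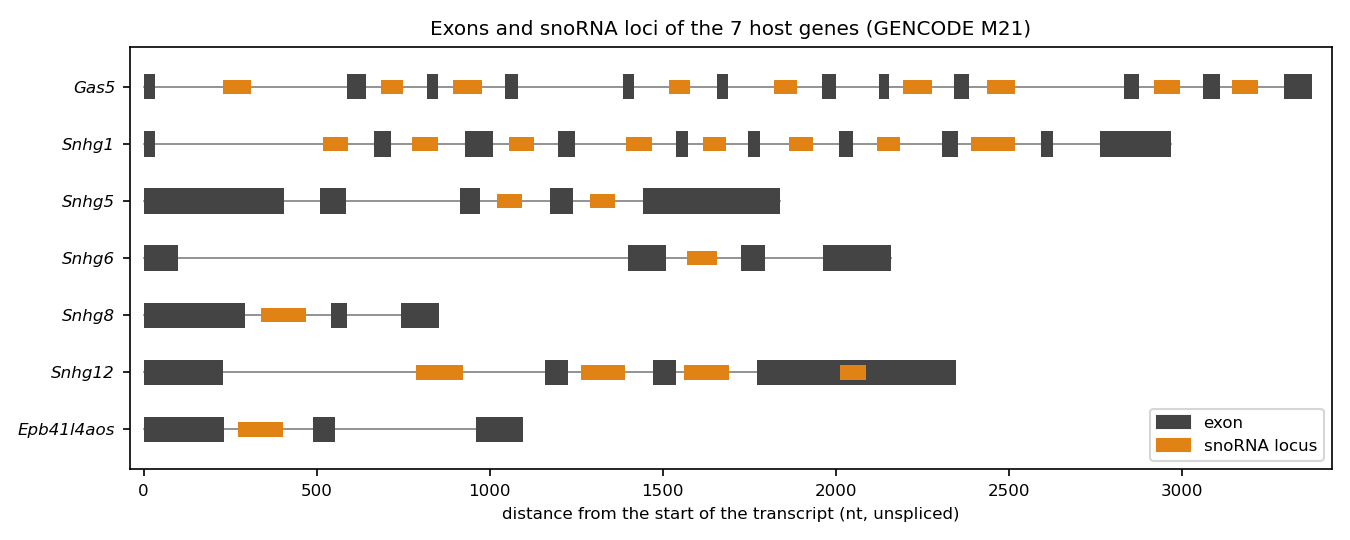
Exons (tall dark boxes) and snoRNA loci (orange boxes) of the 7 host genes, drawn to scale by distance from the start of 1 annotated transcript each, in nucleotides along the unspliced RNA. Gas5 and Snhg1 alternate exons with snoRNA loci, 9 and 8 of them, while Snhg6, Snhg8 and Epb41l4aos hold 1 locus each.

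The products of these introns are shown by 1 snoRNA of each class, read from the GENCODE transcripts. Snord47, from an intron of Gas5 (chr1:161038082-161038158, plus strand, 77 nt), is a box C/D snoRNA, with box C and box D in capitals. Snora61, from an intron of Snhg12 (chr4:132310240-132310369, plus strand, 130 nt), is a box H/ACA snoRNA, with its ACA box in capitals 3 bases before the end.
Snord47: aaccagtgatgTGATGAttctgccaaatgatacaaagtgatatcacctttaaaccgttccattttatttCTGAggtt
Snora61: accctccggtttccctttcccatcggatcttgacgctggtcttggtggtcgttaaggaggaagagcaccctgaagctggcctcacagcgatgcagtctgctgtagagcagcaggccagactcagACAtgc
The table had 119 rows for snoRNAs or small Cajal body RNAs, and 117 were listed at 0 in every library. Of the other rows, Scarna13 was above 0 in 2 libraries and Snord17 in 1. The values below are therefore of the spliced or unspliced host RNAs, and the snoRNAs themselves could not be followed.

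The start of transcription is shown because a pyrimidine run at the start is a known feature of Gas5 and related hosts. RefSeq promoter sequences (GRCm38.p6) were found for 6 of the 10 genes. Below are 20 bases to each side of the annotated start of the 5 hosts among them, each on its own strand. Capitals mark the longest run of C and T that lies at least partly within 10 nt of the start.
Gas5 (chr1:161035146-161035185, plus): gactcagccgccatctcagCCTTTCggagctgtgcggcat
Snhg1 (chr19:8723467-8723506, plus): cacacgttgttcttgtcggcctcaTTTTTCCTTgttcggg
Snhg5 (chr9:88522878-88522917, minus): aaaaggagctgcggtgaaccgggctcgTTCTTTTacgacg
Snhg8 (chr3:123508317-123508356, minus): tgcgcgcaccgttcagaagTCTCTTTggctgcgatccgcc
Snhg12 (chr4:132308658-132308697, plus): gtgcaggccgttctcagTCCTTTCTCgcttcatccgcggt
The runs were 6 nt in Gas5, 9 in Snhg1, 7 in Snhg5, 7 in Snhg8 and 9 in Snhg12. Those of Snhg1 and Snhg5 do not cross the annotated start and begin downstream of it, at positions 5 and 8. A second annotated start of Gas5 had a run of 3 nt, and Malat1 had 4 nt. Of 32851 RefSeq promoters, 45.9% had a run of at least 5 nt by the same rule, and the median run was 4 nt. These matches describe the letters only.

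All 10 RNAs passed the filter for testing, at least 1 TPM in at least 2 libraries, which 11152 genes passed. TPM is a gene's length-corrected share of a library's transcripts. The submitters' values carry no read counts, so depth is unknown, and the labels name no RNA standard added to the samples. A gain in TPM after actinomycin D therefore means loss slower than that of other transcripts, or gain, and fewer cells of a type cannot be told apart from less RNA per cell. For 7871 genes with a mean of at least 5 TPM, the median level at 4 h was 63.8% of that at 0 h in KO and 57.6% in WT cells. At 8 h it was 41.8% in KO and 32.0% in WT cells. Across genes, the pair of libraries in each group had r of 0.991 to 0.994. All 7 myeloid blast markers were above 1 TPM, their sum lying between 189 and 1066 TPM in KO and between 217 and 1294 TPM in WT libraries. Of 3 T cell markers 0 reached 1 TPM in 2 libraries, as did 0 of 3 B cell markers, 1 of 3 erythroid markers and 1 of 4 stromal and endothelial markers. Tet2 mRNA was still present, at 10.2 and 10.2 TPM in KO and 13.1 and 16.0 TPM in WT libraries at 0 h, and a gene-level value does not show which exons were lost.

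Before actinomycin D the RNAs spanned a wide range of TPM. In KO cells at 0 h Malat1 was highest, at 412 ± 8.59 TPM (SD, n = 2), followed by Rpph1 at 272 ± 26.9, Snhg6 at 243 ± 3.37 and Snhg1 at 101 ± 7.67 TPM. Snhg5 and Gas5 followed at 51.8 ± 2.60 and 51.1 ± 1.15 TPM, and their libraries overlapped. Neat1 had 22.3 ± 0.856, Snhg12 14.4 ± 1.78 and Snhg8 10.4 ± 0.707 TPM. Epb41l4aos was lowest, at 2.68 TPM in 1 KO library and listed at 0 in the other. WT cells at 0 h had nearly the same order, with Malat1 at 441 ± 62.7 TPM, Snhg6 at 191 ± 35.4 and Rpph1 at 173 ± 51.7 TPM. There the libraries of Snhg6 and Rpph1 overlapped, as did those of Snhg5 and Gas5.

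**Figure D2:**
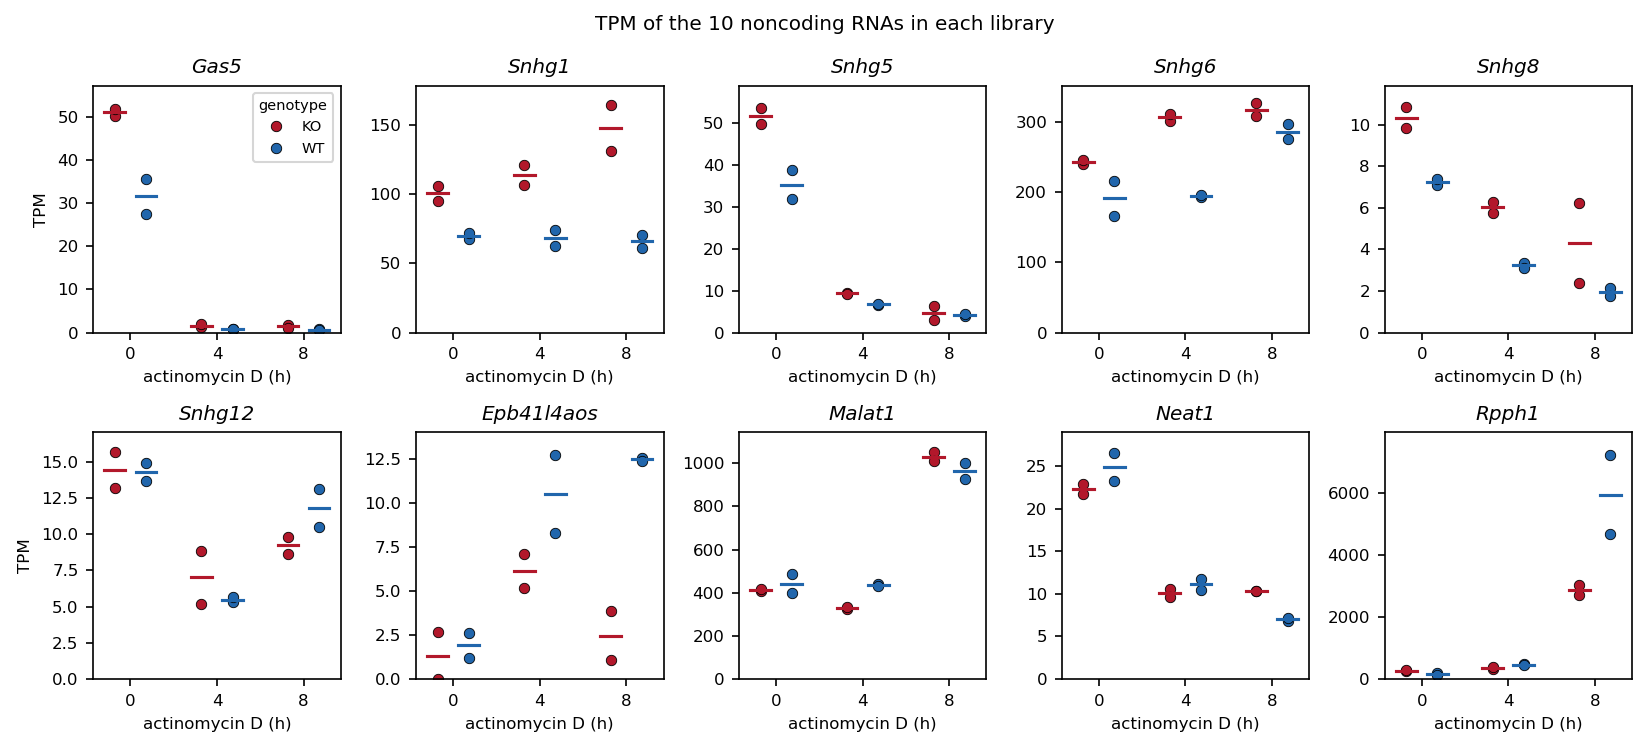
TPM of each RNA (vertical axis, linear, own scale per panel) against hours of actinomycin D, with KO libraries in red and WT libraries in blue, 1 point per library and a bar at the group mean. Gas5 and Snhg5 were far lower from 4 h on in both genotypes, Malat1 was higher in every library at 8 h than in any at 0 h, and Rpph1 at 8 h was 2704 and 3026 TPM in KO against 7215 and 4663 TPM in WT libraries.

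In KO cells the host RNAs parted after actinomycin D. Gas5 and Snhg5 fell most, Snhg8 and Snhg12 fell less, and Snhg1 and Snhg6 were higher in TPM at 8 h. At 4 h against 0 h, 2 of the 10 RNAs were higher and 6 lower past the threshold, a limma adjusted p under 0.05, where 4.88% of all genes tested were higher and 68.0% lower. At 8 h against 0 h, 4 were higher and 5 lower, where 9.54% of all genes were higher and 75.4% lower. Leaving aside Gas5, Epb41l4aos and Rpph1, selected on WT values, 1 of 7 was higher and 5 lower at 4 h. At 8 h 3 of the 7 were higher and 4 lower. With median-ratio scaling, which sets the middle of the genes to no change, 5 of the 10 were higher and 2 lower at 4 h, and 7 higher and 2 lower at 8 h. Of all 11152 genes, 4142 were then higher and 3845 lower at 4 h, and 4319 higher and 4537 lower at 8 h. The median log2 change of the 10 was -0.51 at 4 h and -0.10 at 8 h, beside -0.70 and -1.16 for all genes. Counts and medians of the 10 are a description, since 3 of them were selected on changes over time. Changes below are log2 differences of TPM + 1, which understate the change of low genes, with the SE of the fit.

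Gas5, a host whose spliced RNA is a standard example of a nonsense-mediated decay target, had 50.3 and 51.9 TPM in KO libraries at 0 h, 1.26 and 1.94 after 4 h, and 1.76 and 1.16 after 8 h. WT libraries gave 27.5 and 35.7 TPM at 0 h, 0.76 and 0.75 after 4 h, and 0.82 and 0.52 after 8 h. The loss was present by 4 h, and every treated library was far below every untreated one. In KO cells it changed by -4.34 ± 0.18 at 4 h (adjusted p = 2.66e-09, limma) and by -4.42 ± 0.18 at 8 h (4.52e-10). Its KO level stood at 3.13% of the 0 h level at 4 h and at 2.86% at 8 h. In WT cells these were 2.39% and 2.12%, and all 4 treated WT libraries were under 1 TPM. From 4 h to 8 h the KO change was -0.08 ± 0.18 (0.752), so at this level no further loss could be measured.

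Snhg5, host of 2 snoRNA loci, fell less by 4 h than Gas5. It stood at 49.9 and 53.6 TPM in KO libraries at 0 h, 9.54 and 9.15 after 4 h, and 3.05 and 6.25 after 8 h, against 31.9 and 38.8, 6.62 and 6.92, and 3.90 and 4.43 TPM in WT libraries at the same times. Snhg5 started level with Gas5 in each genotype, and at 4 h its libraries lay above all libraries of Gas5. The KO change was -2.35 ± 0.21 at 4 h (adjusted p = 5.28e-07, limma) and -3.28 ± 0.21 at 8 h (1.15e-08), when 8.98% of the 0 h level was left. Between 4 h and 8 h it changed by -0.93 ± 0.21 (0.00234), a call lost under median-ratio scaling (-0.52, 0.0841, range over 13 alternatives 2.25e-05 to 0.0841).

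Snhg8, host of 1 H/ACA snoRNA locus, had 9.85 and 10.9 TPM in KO libraries at 0 h, 5.78 and 6.27 after 4 h, and 6.25 and 2.38 after 8 h. WT libraries gave 7.12 and 7.40 TPM at 0 h, 3.37 and 3.13 after 4 h, and 2.14 and 1.76 after 8 h. Its level at 4 h was 58.2% of that at 0 h in KO and 44.8% in WT cells, beside 63.8% and 57.6% for the median gene. The KO change was -0.69 ± 0.26 at 4 h (adjusted p = 0.0291, limma) and -1.20 ± 0.26 at 8 h (0.000831). Under median-ratio scaling these became 0.12 (0.718) and 0.03 (0.942). The 4 h call was also lost without either KO library at 0 h or either at 4 h (adjusted p 0.0606 to 0.111, range over 13 alternatives 0.00141 to 0.718).

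Snhg12, host of 4 snoRNA loci, was lowest at 4 h. It stood at 15.7 and 13.2 TPM in KO libraries at 0 h, 5.21 and 8.81 after 4 h, and 9.81 and 8.64 after 8 h, against 14.9 and 13.7, 5.35 and 5.63, and 13.1 and 10.5 TPM in WT libraries. The 4 h libraries lay below the 0 h libraries in both genotypes, and in WT cells the 8 h libraries lay above those at 4 h. In KO cells it changed by -0.98 ± 0.19 at 4 h (adjusted p = 0.000479, limma) and by -0.59 ± 0.19 at 8 h (0.0112). Between 4 h and 8 h the change was 0.39 ± 0.19 (0.108), past the threshold without KO 4 h replicate 2 (0.72, 0.00581). With median-ratio scaling the 4 h change was -0.14 (0.589) and the 8 h change turned to 0.72 (0.0114). The 8 h call was lost without KO 0 h replicate 1 (0.0843) and also without KO 8 h replicate 2 (0.0613), with adjusted p of 0.000209 to 0.0843 over 13 alternatives.

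Snhg1, host of 8 snoRNA loci, stood at 8 h at 146.7% of its 0 h level in KO and at 94.9% in WT cells. It stood at 106 and 95.2 TPM in KO libraries at 0 h, 121 and 106 after 4 h, and 131 and 164 after 8 h. WT libraries gave 67.2 and 71.9 TPM at 0 h, 73.7 and 62.2 after 4 h, and 61.3 and 70.8 after 8 h. The WT groups overlapped at all times, while both KO libraries at 8 h lay above all others of either genotype. In KO cells it changed by 0.17 ± 0.12 at 4 h (adjusted p = 0.228, limma) and rose by 0.54 ± 0.12 at 8 h (0.00119), a call lost when TPM were scaled to ribosomal protein genes (0.17, 0.245, range over 13 alternatives 1.69e-07 to 0.245). Relative to the middle of all genes, by median-ratio scaling, it rose by 1.96. Its rise of 0.37 ± 0.12 between 4 h and 8 h (0.0234) was lost in 6 of 13 alternatives, among them without KO 4 h replicate 2 (0.28, 0.165) or KO 8 h replicate 2 (0.21, 0.232), range 0.000201 to 0.232.

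Snhg6, host of 1 snoRNA locus, was the most abundant host RNA. It stood at 240 and 245 TPM in KO libraries at 0 h, 301 and 311 after 4 h, and 308 and 326 after 8 h, against 216 and 166, 193 and 195, and 296 and 275 TPM in WT libraries. Both treated KO groups lay above the untreated one, and in WT cells only the 8 h libraries did. In KO cells it rose by 0.33 ± 0.10 at 4 h (adjusted p = 0.00861, limma) and by 0.38 ± 0.10 at 8 h (0.00296). Scaled to ribosomal protein genes these were -0.003 (0.974) and 0.01 (0.919). The 4 h call was also lost without KO 4 h replicate 2 (0.05003), in a range over 13 alternatives of 3.16e-05 to 0.974.

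Epb41l4aos, the least abundant host, had 2.68 and 0 TPM in KO libraries at 0 h, 5.2 and 7.12 after 4 h, and 3.85 and 1.10 after 8 h. WT libraries gave 1.20 and 2.63 TPM at 0 h, 8.32 and 12.7 after 4 h, and 12.6 and 12.4 after 8 h. Levels were higher at 4 h than at 0 h in both genotypes, and at 8 h they stayed high in WT cells while both KO libraries were back under 4 TPM. In KO cells it rose by 1.89 ± 0.51 at 4 h (adjusted p = 0.00524, limma) and changed by 0.73 ± 0.51 at 8 h (0.198), and by -1.15 ± 0.51 between 4 h and 8 h (0.0790). The 4 h call was lost without KO 0 h replicate 2, the library at 0 (0.95, 0.0683, range over 13 alternatives 9.63e-05 to 0.0683). The 8 h change passed with median-ratio scaling (1.41, adjusted p = 0.0200, limma), and also without KO 0 h replicate 1 (1.67) or KO 8 h replicate 2 (1.34). The change from 4 h to 8 h passed when only genes with means of at least 5 TPM were tested (-1.15, 0.0468). It also passed without KO 8 h replicate 1 (-1.76).

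The nuclear RNAs Malat1 and Neat1 are neighbours on chromosome 19. In KO cells Malat1 was higher and Neat1 lower in TPM at 8 h than at 0 h. At 4 h both were lower, Neat1 (-1.07) by more than Malat1 (-0.32). Malat1 had 406 and 418 TPM in KO libraries at 0 h, 325 and 334 after 4 h, and 1051 and 1008 after 8 h, against 397 and 485, 439 and 430, and 926 and 999 TPM in WT libraries. At 8 h the level was 249.9% of that at 0 h in KO and 218% in WT cells, and all 4 libraries lay above every earlier one. The KO change was -0.32 ± 0.08 at 4 h (adjusted p = 0.00354, limma), turning to 0.60 (1.89e-06) with median-ratio scaling, and 1.32 ± 0.08 at 8 h (1.03e-08). From 4 h to 8 h Malat1 rose by 1.64 ± 0.08 (4.08e-08).

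Neat1 had 21.7 and 22.9 TPM in KO libraries at 0 h, 10.6 and 9.63 after 4 h, and 10.3 and 10.3 after 8 h. WT libraries gave 23.3 and 26.6 TPM at 0 h, 10.4 and 11.8 after 4 h, and 6.84 and 7.20 after 8 h. KO groups at 4 h and 8 h overlapped (0.03 ± 0.11, adjusted p = 0.870, limma), while in WT cells both 8 h libraries lay below those at 4 h. The KO change was -1.07 ± 0.11 at 4 h (adjusted p = 2.05e-06, limma) and -1.05 ± 0.11 at 8 h (1.43e-06), beside -0.70 and -1.16 for the median of all genes. Median-ratio scaling gave -0.20 (0.0569) and 0.29 (0.00970). The table has 1 row for Neat1, so its short and long forms are summed.

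The ends of Malat1 and of the long form of Neat1 are shown because both finish in a genome-encoded A-rich tract in place of a tail added after cleavage, and the library kit was one for mRNA. The short form of Neat1 has an added tail, and the 2 forms are not told apart in the table. The lines give 40 bases of the GENCODE transcripts, on the minus strand, with the shared motif AAAGCAAAA in capitals.
Malat1 (chr19:5795982-5796021): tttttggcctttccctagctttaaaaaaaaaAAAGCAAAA
Neat1 (chr19:5824708-5824747): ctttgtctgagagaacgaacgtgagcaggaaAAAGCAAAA
In Neat1 the motif is the end of the annotated long transcript, and in Malat1 the annotation runs 292 bases further. On the sense strand it occurs in 2.77% of 141767 transcripts.

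Rpph1 had the widest span of the 10 in TPM, while as a ratio the span of Gas5 was wider. The start of the RNA (chr14:50807708-50807767, minus strand) is given from the GENCODE transcript to identify it.
Rpph1: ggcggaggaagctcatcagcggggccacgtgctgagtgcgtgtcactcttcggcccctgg
It stood at 253 and 291 TPM in KO libraries at 0 h, 321 and 381 after 4 h, and 2704 and 3026 after 8 h. WT libraries gave 209 and 136 TPM at 0 h, 482 and 441 after 4 h, and 7215 and 4663 after 8 h. Nearly all of the gain came after 4 h in both genotypes, and the 2 WT libraries at 8 h differed more than any other pair. The KO change was 0.36 ± 0.20 at 4 h (adjusted p = 0.125, limma) and 3.39 ± 0.20 at 8 h (6.57e-09), with 3.03 ± 0.20 between 4 h and 8 h (2.38e-07). The KO level at 8 h was 1052% of that at 0 h. RNAs of polymerase III have no added tail, and how an mRNA kit captures Rpph1 was not tested. Rmrp, the related RNA of RNase MRP, was listed at 0 in 3 of the KO libraries. It stood at 0 and 7.59 TPM in KO libraries at 0 h, 25.3 and 0 after 4 h, and 0 and 13.5 after 8 h, against 23.4 and 20.3, 24.98 and 16.1, and 58.7 and 45.3 TPM in WT libraries. Rmrp passed as lower in KO cells at 8 h (adjusted p = 0.0414, limma), with no fold given because of the library at 0.

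From 4 h to 8 h in KO cells, 3 of the 10 were higher (Rpph1, Malat1 and Snhg1) and 1 was lower (Snhg5), where 8.97% of all genes were higher and 43.1% lower. Of the 7 not selected on WT values, 2 were higher and 1 lower. The 10, with Gas5, Epb41l4aos and Rpph1 counted, had a median change of 0.04, beside -0.28 for all genes. Together the 10 made up 0.423% and 0.455% of TPM in KO libraries at 8 h, against 0.116% and 0.120% at 0 h. In WT libraries they made up 0.854% and 0.604% at 8 h, against 0.0995% and 0.0984% at 0 h. Rpph1, selected on WT values, was 2704 and 3026 of the summed 4228 and 4554 TPM in KO libraries at 8 h. In WT libraries at 8 h it was 7215 and 4663 of 8538 and 6044 TPM, so these 8 h shares are mostly Rpph1.

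In WT cells Gas5 and Snhg5 also had the lowest differences and Rpph1 and Epb41l4aos the highest, given here without a test. At 4 h against 0 h the log2 difference was -4.20 for Gas5, -2.22 for Snhg5, -1.23 for Snhg12, -1.10 for Neat1 and -0.96 for Snhg8. It was -0.04 for Snhg1, 0.04 for Snhg6, -0.02 for Malat1, 1.44 for Rpph1 and 2.00 for Epb41l4aos, beside a median of -0.81 over all genes. At 8 h it was -4.28 for Gas5, -2.81 for Snhg5, -1.69 for Neat1 and -1.49 for Snhg8. The remaining 8 h differences were -0.26 for Snhg12, -0.08 for Snhg1, 0.59 for Snhg6, 1.13 for Malat1, 2.26 for Epb41l4aos and 5.09 for Rpph1, beside -1.40 over all genes.

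**Figure D3:**
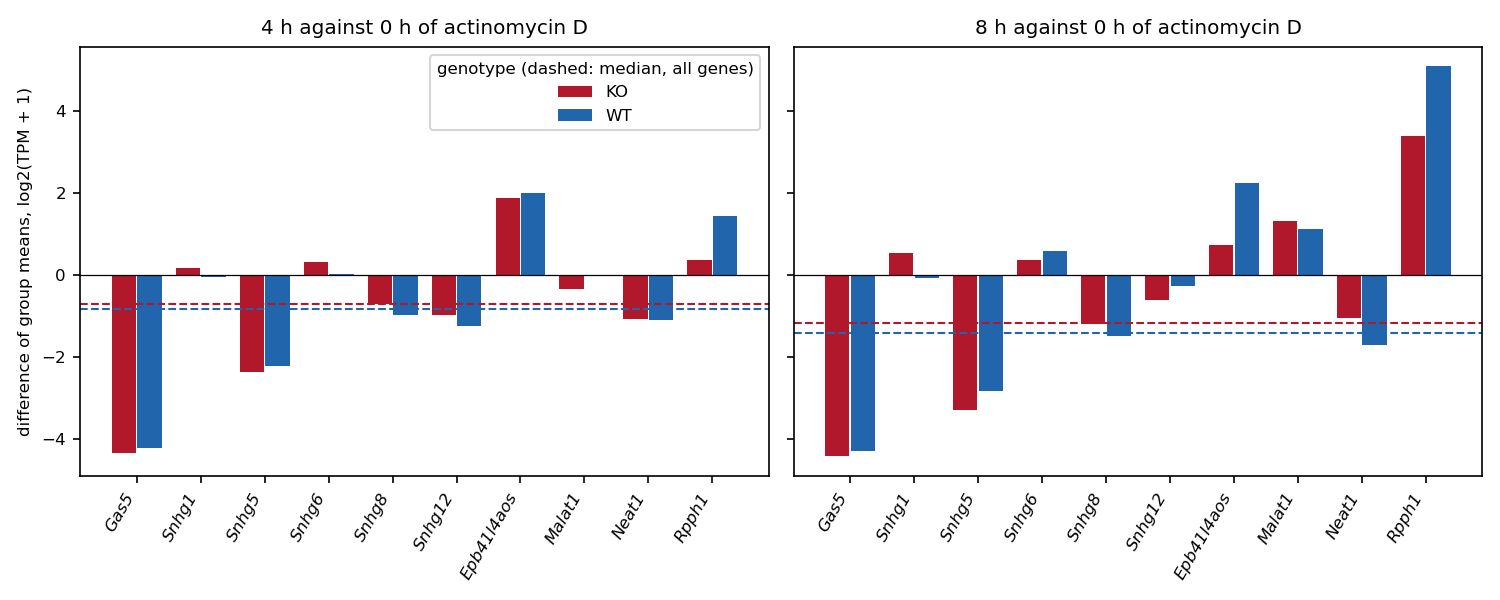
Change of each RNA from 0 h as the difference of group means of log2(TPM + 1), at 4 h (left) and 8 h (right), with KO bars in red and WT bars in blue and the median of all 11152 genes as dashed lines. At 8 h Gas5 stood at -4.42 in KO and -4.28 in WT cells, and Rpph1 at 3.39 in KO and 5.09 in WT cells.

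Set against WT cells at 0 h, KO cells show how the RNAs stood before transcription was blocked. Of the 7 RNAs not selected on WT values, Snhg1 and Snhg6 were higher in KO cells and 0 were lower, where 14.3% of all genes were higher and 11.5% lower. Snhg1 was higher by 0.53 ± 0.12 (adjusted p = 0.00754, limma) and Snhg6 by 0.36 ± 0.10 (0.0181). In both, the KO libraries lay above both WT libraries. Snhg5 (0.54 ± 0.21, 0.0773) and Snhg8 (0.46 ± 0.26, 0.232) also had KO libraries above all WT libraries and did not pass. Snhg12 (0.01 ± 0.19, 0.979), Malat1 (-0.09 ± 0.08, 0.473) and Neat1 (-0.15 ± 0.11, 0.358) did not pass either. As a description, the difference was 0.69 ± 0.18 for Gas5 and 0.68 ± 0.20 for Rpph1, with KO libraries above both WT libraries in each, and -0.56 ± 0.51 for Epb41l4aos. The median of the 10 was 0.41, beside 0.06 for all genes. It counts Gas5, Epb41l4aos and Rpph1 and is a description too.

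Markers of the blast cells themselves also differed with genotype. All 7 passed at 0 h, 2 higher and 5 lower in KO cells, with Mpo, myeloperoxidase, at 2.16 ± 0.12 (adjusted p = 8.27e-08, limma), Elane, neutrophil elastase, at -1.67 ± 0.12 (9.94e-07) and Kit, the SCF receptor, at -0.81 ± 0.13 (0.000517). At 4 h 1 was higher and 3 lower, and at 8 h 1 higher and 4 lower. Of all genes 14.3%, 24.9% and 37.3% were higher at 0, 4 and 8 h, and 11.5%, 13.7% and 12.1% lower. Pecam1, listed as an endothelial marker and the 1 gene of its list that was tested, was higher in KO cells at 8 h by 1.17 ± 0.11 (3.57e-06), and its 8 h change differed by 1.02 ± 0.16 (0.00137). The summed stromal and endothelial markers lay between 142 and 159 TPM in KO and between 57.8 and 158 TPM in WT libraries. Hba-a1, a globin gene and the 1 erythroid marker tested, had an 8 h change that differed by 2.21 ± 0.67 (0.0364). The summed erythroid markers lay between 0.08 and 7.43 TPM in KO and between 1.46 and 7.42 TPM in WT libraries. The part of such differences in the values of the noncoding RNAs was not tested.

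These 0 h calls rested on few libraries and on the scaling. Snhg1 was lost without KO 0 h replicate 1 (adjusted p = 0.0695, limma) or WT 0 h replicate 1 (0.0585), range over 13 alternatives 0.000215 to 0.504. Snhg6 was lost without KO 0 h replicate 1 (0.37), KO 0 h replicate 2 (0.345) or WT 0 h replicate 2 (0.17). It was also lost with median-ratio scaling (0.34, adjusted p = 0.126, limma) and without the trend in limma (0.0584), range 0.000298 to 0.634. Scaled to 79 ribosomal protein genes, which moves the median of all genes to -0.32, 322 of 11152 genes were higher and 4361 lower. Of the 7, 0 then passed as higher, and Snhg6 stood at -0.06 (adjusted p = 0.634, limma), while Malat1 (-0.51, 0.00159) and Neat1 (-0.56, 0.00529) passed as lower. Malat1 also passed as lower without WT 0 h replicate 1 (-0.24). With only the groups compared in the fit, Snhg5 (0.54, adjusted p = 0.000467, limma) and Snhg8 (0.46, 0.0222) passed as higher. Snhg5 also passed with the replicate number as a block (0.0494).

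At 4 h the same comparison gave 3 of the 7 higher and 1 lower in KO cells, where 24.9% of all genes were higher and 13.7% lower. Snhg1 was higher by 0.74 ± 0.12 (adjusted p = 0.000650, limma) and Snhg6 by 0.66 ± 0.10 (0.000310), and Malat1 was lower, at -0.40 ± 0.08 (0.00260). Snhg8 (0.72 ± 0.26, 0.0432) was higher too. In all 4 the KO and WT libraries did not overlap, and neither did they in Snhg5, which did not pass. Snhg5 (0.41 ± 0.21, 0.137), Snhg12 (0.27 ± 0.19, 0.289) and Neat1 (-0.13 ± 0.11, 0.398) did not pass. As a description, Gas5 differed by 0.56 ± 0.18, Epb41l4aos by -0.67 ± 0.51 and Rpph1 by -0.40 ± 0.20, each with KO and WT libraries that did not overlap. The median of the 10, which counts these described RNAs, was 0.34, beside 0.11 for all genes. Snhg8 was lost in 9 of 13 alternatives (range 0.00601 to 0.233). Among them were median-ratio scaling (0.655, adjusted p = 0.106, limma), ribosomal protein scaling (0.40, 0.233) and leaving out any 1 library of the 4 (0.67 to 0.78). Scaled to ribosomal protein genes Snhg1 was lost too (0.35, 0.0651, range 0.000220 to 0.0651). Snhg12 passed without KO 4 h replicate 1 (0.60, 0.0258).

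At 8 h 3 of the 7 were higher and 0 lower in KO cells, where 37.3% of all genes were higher and 12.1% lower. Snhg1 was higher by 1.14 ± 0.12 (adjusted p = 9.59e-06, limma), Neat1 by 0.49 ± 0.11 (0.00262) and Snhg8 by 0.75 ± 0.26 (0.0298). Snhg5 (0.07 ± 0.21, 0.802), Snhg6 (0.15 ± 0.10, 0.234), Snhg12 (-0.32 ± 0.19, 0.185) and Malat1 (0.10 ± 0.08, 0.353) did not pass. Malat1 turned to -0.18 (0.0102) with median-ratio scaling and to -0.39 (0.00985) with ribosomal protein scaling. Snhg12 passed as lower with both (-0.59, 0.0436, and -0.76, 0.00456). Snhg6 turned to -0.33 (0.0109) with ribosomal protein scaling, and Snhg5 passed without KO 8 h replicate 1 (0.49, 0.0185). As a description, Gas5 differed by 0.55 ± 0.18, Rpph1 by -1.02 ± 0.20 and Epb41l4aos by -2.08 ± 0.51, and the WT libraries at 8 h, which are 1 arm of these values, were known when the RNAs were listed. The median of the 10, which counts these described RNAs, was 0.12, beside 0.20 for all genes. Snhg8 was lost in 7 of 13 alternatives, among them median-ratio scaling (0.60, adjusted p = 0.118, limma) and ribosomal protein scaling (0.395, 0.222). It was also lost without KO 8 h replicate 1 (0.20), WT 8 h replicate 1 (0.84) or WT 8 h replicate 2 (0.66). Neat1 was lost when scaled to ribosomal protein genes (0.06, 0.767, range over 13 alternatives 0.00210 to 0.767).

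**Figure D4:**
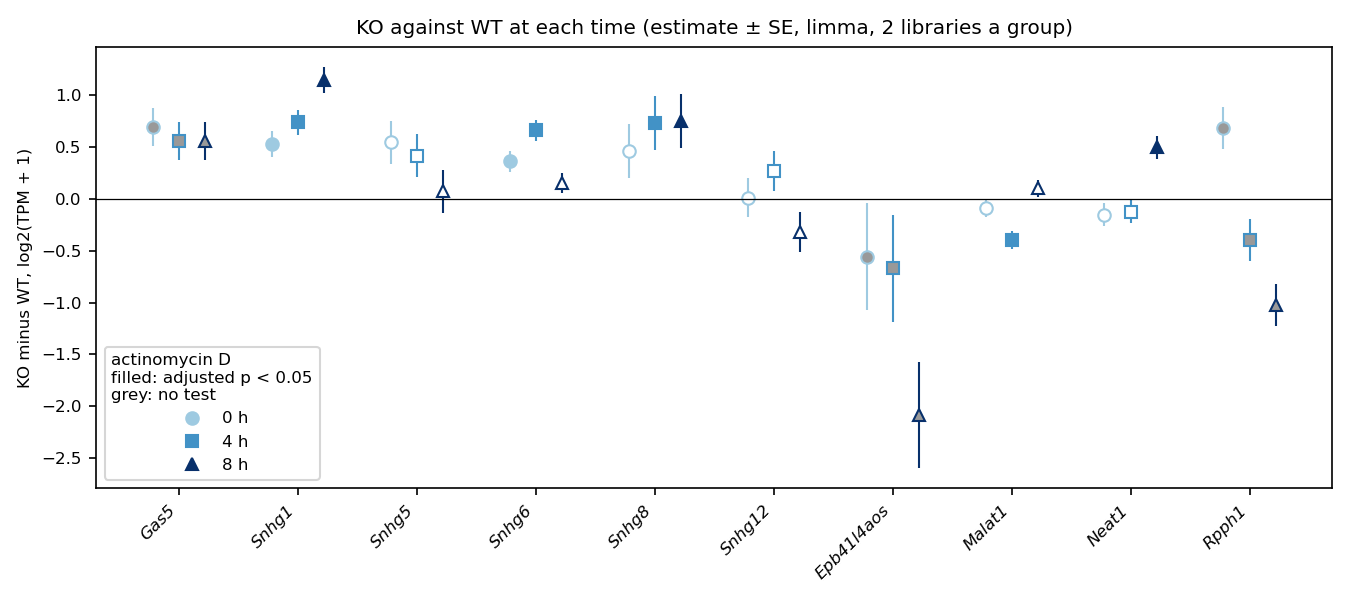
KO minus WT on the log2(TPM + 1) scale for each RNA at 0 h (circles), 4 h (squares) and 8 h (triangles), with bars of 1 SE and filled symbols for a limma adjusted p under 0.05. Grey symbols mark Gas5, Epb41l4aos and Rpph1, which were selected on WT values and have no test. Snhg1 was above zero and filled at all 3 times, from 0.53 at 0 h to 1.14 at 8 h, and Rpph1 was at 0.68 at 0 h and at -1.02 at 8 h.

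The difference of the changes asks whether a transcript moved differently in KO than in WT cells after the block. For the 4 h change 0 of the 7 passed, where 0.0538% of all genes were higher and 0.296% lower, and 1 of the 7 had an unadjusted p under 0.05. This was Malat1, with -0.31 ± 0.12 (adjusted p = 0.235, limma). Malat1 passed without WT 0 h replicate 2 (-0.45, 0.0336), as did Snhg6 (0.49, 0.0347), and Malat1 with median-ratio scaling (-0.39, 0.0300). Only limma was run. As a description, the 4 h change of Rpph1 differed by -1.08 ± 0.29.

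For the 8 h change 2 of the 7 were higher and 0 lower in KO cells, where 17.3% of all genes were higher and 2.63% lower. Neat1 lost less in KO cells, by 0.65 ± 0.16 (adjusted p = 0.0134, limma), a call lost without KO 0 h replicate 1 (0.0635) or with ribosomal protein scaling (0.0524), range over 17 alternatives 0.00804 to 0.0635. Snhg1 changed by 0.54 in KO and by -0.08 in WT cells. This difference of 0.62 ± 0.17 (adjusted p = 0.0268, limma) was lost in 8 of 17 alternatives. They include median-ratio scaling (0.37, adjusted p = 0.169, limma), ribosomal protein scaling (0.55, 0.0752) and limma without the trend (0.0633), range 0.0131 to 0.169. The call was also lost without KO 0 h replicate 2 (0.54), KO 8 h replicate 2 (0.46), WT 0 h replicate 2 (0.57) or WT 8 h replicate 1 (0.52). Without WT 0 h replicate 1 Snhg6 (-0.40, 0.00744) and Malat1 (0.33, 0.0113) passed, and without KO 8 h replicate 2 Snhg5 (-0.89, 0.0105) and Snhg8 (0.84, 0.0186). With all 12 libraries the other 5 did not pass. Rpph1 and Epb41l4aos have the WT change that chose them inside this difference, and their values of -1.70 ± 0.29 and -1.52 ± 0.73 are a description. The median of the 10 was -0.17, beside 0.18 for all genes, with Gas5, Epb41l4aos and Rpph1 counted, so it does not describe the 7. Among the 7, Malat1 (0.19) and Snhg8 (0.29) were above zero without passing, and Snhg5 (-0.47), Snhg12 (-0.33) and Snhg6 (-0.21) were below it.

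Other hosts and partner proteins, from lists drawn up with earlier results known, place the 10 beside their classes. Of 15 other noncoding snoRNA hosts or related genes in the table, 9 were tested. Among all genes 9.54% were higher and 75.4% lower in KO cells at 8 h against 0 h. Of the hosts, 1 of the 9 was higher, Snhg20 (0.27 ± 0.09, adjusted p = 0.0123, limma), and 4 were lower, led by Snhg3 (-1.05 ± 0.17, 6.76e-05), Dancr (-1.24 ± 0.32, 0.00318) and Snhg7 (-0.95 ± 0.24, 0.00254). Their median was -0.43, and Dancr, the lowest, lay above Gas5 (-4.42) and Snhg5 (-3.28). With median-ratio scaling 5 of the 9 were higher and 0 lower, where 4319 of 11152 genes were higher and 4537 lower. Snhg3 then stood at 0.36 (adjusted p = 0.111, limma) and Dancr at -0.29 (0.513), and with ribosomal protein scaling Snhg20 stood at -0.09 (0.490). In KO against WT cells at 0 h Snhg3 (0.70 ± 0.17, adjusted p = 0.00852, limma) and Zfas1 (0.66 ± 0.16, 0.00991) were higher and 0 were lower. Of all genes 14.3% were then higher and 11.5% lower. At 4 h Snhg15 (1.48 ± 0.24, adjusted p = 0.000458, limma), Snhg3 (0.74 ± 0.17) and Zfas1 (0.67 ± 0.16) were higher, and Snhg20 was lower (-1.11 ± 0.09, 2.59e-06). Here 24.9% of all genes were higher and 13.7% lower. At 8 h Snhg4 (0.88 ± 0.19) and Snhg17 (0.43 ± 0.16) were higher and Snhg20 lower (-0.41 ± 0.09), where 37.3% of all genes were higher and 12.1% lower. With ribosomal protein scaling Snhg15 at 4 h was the only higher call left at the 3 times.

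Protein-coding snoRNA hosts, mostly ribosomal protein and nucleolar genes, were higher in KO than in WT cells in 37 of 43 at 0 h, 36 at 4 h and 41 at 8 h, and lower in 0, where 14.3%, 24.9% and 37.3% of all genes were higher. With ribosomal protein scaling, whose genes include many of these hosts, the 0 h comparison gave 0 higher and 2 lower, the 4 h one 2 higher and 5 lower, and the 8 h one 17 higher and 1 lower. Their medians were 0.36, 0.38 and 0.70, and with that scaling -0.06, -0.02 and 0.25. Examples at 8 h are Dkc1, the pseudouridine synthase of H/ACA particles, by 1.56 ± 0.09, and Ncl, nucleolin, by 1.44 ± 0.09. In KO cells at 8 h against 0 h they split, 20 higher and 18 lower, with a median of 0.09 that becomes 1.52 with median-ratio scaling and -0.28 with ribosomal protein scaling. Hspa8, a chaperone gene that hosts box C/D snoRNAs, was the lowest of these protein-coding hosts at -4.98 ± 0.08. The noncoding host Gas5 changed by -4.42, with -5.06 the lowest value over 13 alternatives. Gas5 ended near 1 TPM, where the added 1 TPM shrinks a change, so it is not ranked against Hspa8.

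The mRNAs of proteins that work with these RNAs mostly fell in TPM in KO cells at 8 h, as did 75.4% of all genes. Relative to the middle of all genes, with median-ratio scaling, their 8 h counts were more even, as given for each list. Of all 11152 genes, 4319 were then higher and 4537 lower. Of 19 box C/D and H/ACA particle proteins and assembly factors 18 fell in KO cells at 8 h (median -1.74; 9 higher and 10 lower with median-ratio scaling), among them Nop58 (-2.52 ± 0.09) and Nop56 (-2.59 ± 0.09), core proteins of box C/D particles. Against WT cells 14 were higher at 0 h, 15 at 4 h and 15 at 8 h, and 0 were lower, where 14.3%, 24.9% and 37.3% of all genes were higher, while with ribosomal protein scaling 0, 2 and 9 were higher. Dkc1, Nop56 and Nop58 are in this list and in that of the hosts. Of 19 nonsense-mediated decay factors 18 fell and 1 rose in KO cells at 8 h (median -1.56; 5 higher and 10 lower with median-ratio scaling). Against WT cells 2 were higher at 0 h, 4 higher and 3 lower at 4 h, and 9 higher and 1 lower at 8 h. Of all genes 14.3%, 24.9% and 37.3% were higher at these times and 11.5%, 13.7% and 12.1% lower. With ribosomal protein scaling the 8 h counts were 4 higher and 3 lower. Magohb, a part of the exon junction complex, was higher by 1.45 ± 0.13 at 8 h. Of 20 paraspeckle and nuclear speckle proteins 19 fell in KO cells at 8 h (median -1.27; 9 higher and 8 lower with median-ratio scaling). Against WT cells 15 were then higher and 0 lower, where 37.3% of all genes were higher, with ribosomal protein scaling 5 and 2, among them Nono, a core paraspeckle protein, by 0.73 ± 0.06, and Nudt21, a cleavage factor, by 1.12 ± 0.09. All 11 RNase P and RNase MRP proteins tested fell in KO cells at 8 h (median -2.62; 1 higher and 8 lower with median-ratio scaling), among them Pop1 (-3.05 ± 0.14) and Rpp30 (-2.66 ± 0.15), while Rpph1, their RNA, rose. The 8 h change differed between genotypes in 0 of these 11 (1 lower with median-ratio scaling), where 17.3% of all genes were higher and 2.63% lower.

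**Figure D5:**
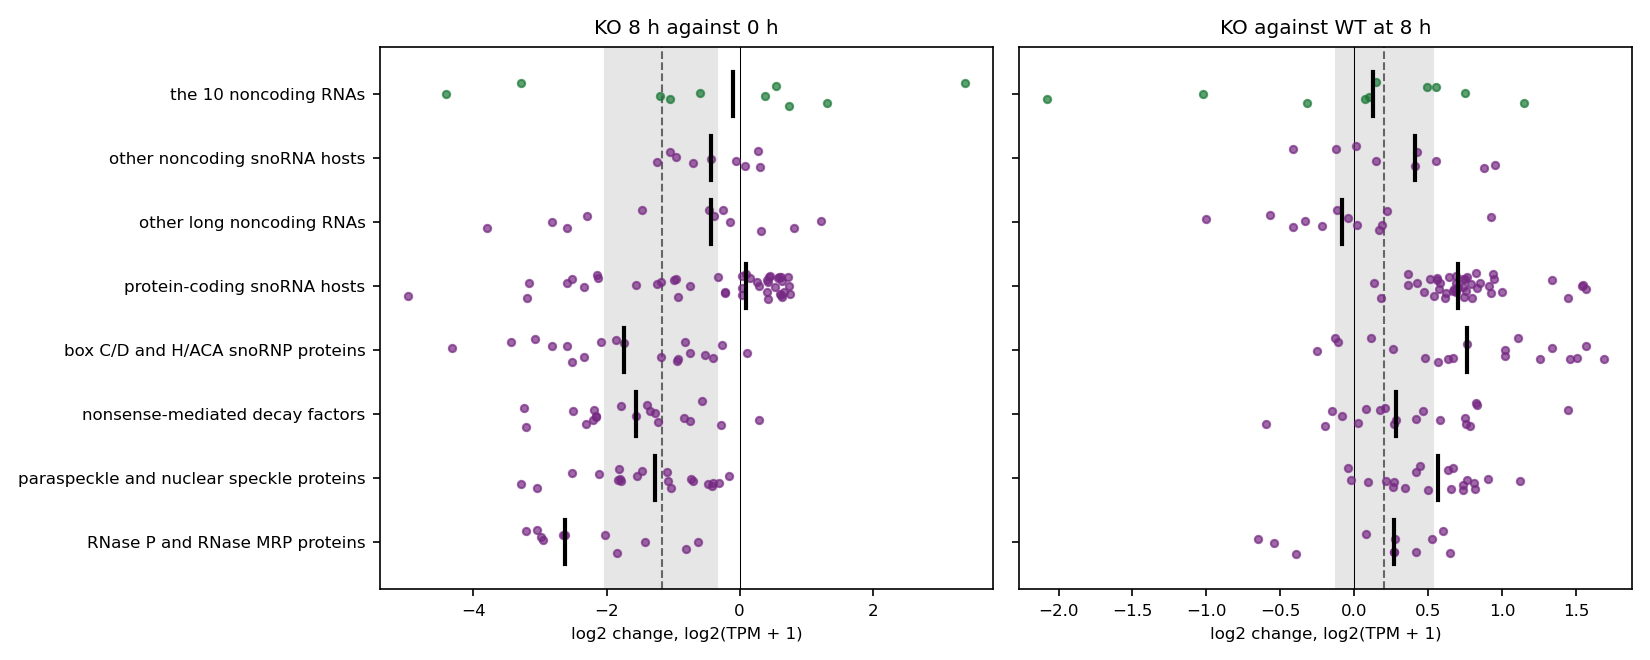
Log2 change of each gene (points) by list, for KO at 8 h against 0 h (left) and KO against WT at 8 h (right), with a black bar at the list's median, the dashed line at the median and grey between the quartiles of all genes tested. At left the protein-coding hosts spread on both sides of zero (median 0.09) and the RNase P and RNase MRP proteins lie at a median of -2.62, while Rpph1 is the point at 3.39.

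Among 12 other long noncoding RNAs tested, 6 fell and 0 rose in KO cells at 8 h, where 75.4% of all genes fell and 9.54% rose. With median-ratio scaling 4 fell and 6 rose, where 4537 of 11152 genes fell and 4319 rose. The lowest in TPM were 2900097C17Rik (-3.79 ± 0.13), Mir17hg (-2.82 ± 0.23), Peg13 (-2.60 ± 0.14) and Tug1 (-2.29 ± 0.11). Against WT cells 2 were higher and 1 lower at 0 h. The counts were 1 and 3 at 4 h, and 1 and 2 at 8 h. Of all genes 14.3%, 24.9% and 37.3% were higher at these times and 11.5%, 13.7% and 12.1% lower. At 0 h Dleu2 (-0.66 ± 0.16) was lower and Peg13 (0.48 ± 0.14) higher, as was Peg13 at 4 h (0.52 ± 0.14). At 4 h 2900097C17Rik (-0.51 ± 0.13) and Mir17hg (-0.72 ± 0.23) were lower, and at 8 h 2900097C17Rik (-0.34 ± 0.13). Mir22hg, a microRNA host gene, was lower at 4 h (-1.09 ± 0.16) and 8 h (-1.001 ± 0.16). Lockd was higher at 0 h (0.65 ± 0.20) and 8 h (0.92 ± 0.20), calls lost with ribosomal protein scaling (0.25, adjusted p = 0.328, and 0.46, 0.0903, limma).

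The genes whose log2(TPM + 1) over the 12 libraries was most like that of Gas5, among 7856 genes, were Smarcad1 (Pearson r 0.997), Utp14b (0.995) and Pcdh7 (0.995). For Rpph1 they were Fcrls (0.990), Ly6a (0.988) and Leprot (0.979). Epb41l4aos had no close companion, with Shfm1 at 0.783, Fis1 at 0.773 and Mpnd at 0.769. The 12 libraries share the time course, on which most genes move, so these values are a description without a test.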

How the data were processed

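RNA of 12 libraries was measured, 2 for each of 6 groups. Per the labels' protocols, TRIzol was used to extract total RNA, and a KAPA stranded mRNA kit to make libraries. STAR, RSEM and mm10 are named in the submitters' processing notes. The sources used here do not give tool versions, gene annotation or strand option. The authors deposited TPM per gene, 1 column per library, whose sum is the same in every library, and these were used unchanged.

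Values were put on the log2(TPM + 1) scale with a pseudocount of 1. A gene was tested if 2 or more libraries had 1 TPM or more (11152 of 24589). limma 3.58.1 in R 4.3.3 fitted 6 group means over all libraries, with 6 residual degrees of freedom. Spreads were moderated by empirical Bayes with a mean-dependent trend. 8 comparisons were tested, and adjusted p are Benjamini-Hochberg values over all genes tested, with a threshold of 0.05. The script was tested on simulated data. The members and lists were chosen with earlier results of these data known, and no test between genotypes is given for Gas5, Epb41l4aos and Rpph1, selected on WT changes. Named genes were all 10 members and, of the other lists, the 4 with the smallest p in a comparison among those past the threshold and any noncoding snoRNA host, and the 3 genes most correlated with Gas5, Rpph1 and Epb41l4aos. Tet2, Ccnb1ip1, Scarna13, Snord17 and Rmrp are named as checks.

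Alternatives were median-ratio scaling, scaling to 79 ribosomal protein genes, testing without a filter or at means of 5 TPM or more, a pseudocount of 0.1 or 0.5, no trend in limma, the replicate number as a block, only the groups compared, and leaving out each library. Positions and transcripts came from GENCODE M21 (GRCm38) and start sequences from RefSeq (GRCm38.p6). Gas5, Snhg6, Malat1 and Rpph1 overlap other genes, and reads of overlapping genes may be split in ways the deposited TPM do not show.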

Additional observations from a re-analysis of the deposited data

Results flagged for a closer look

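The change from 0 h to 8 h of actinomycin D differed between KO and WT cells in 2 of the 7 RNAs not selected on WT values. This is by the test of the difference itself (limma, 2 libraries a group). Both were higher in KO cells, where 17.3% of all genes were higher and 2.63% lower, with a median difference of 0.18. Neat1 differed by 0.65 (adjusted p = 0.0134), with a change of -1.05 in KO and -1.69 in WT cells. Snhg1 differed by 0.62 (0.0268), with a change of 0.54 in KO and -0.08 in WT cells. The Neat1 call was lost in 2 of 17 alternatives and the Snhg1 call in 8 of 17. Rpph1 is given in the comparison of the 8 h change as a description, since its WT change was known when it was listed.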

How the results depend on the processing

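With median-ratio scaling, Malat1 in KO against WT at 8 h became -0.18, and in KO cells Malat1 at 4 h became 0.60, Snhg8 0.12 at 4 h and 0.025 at 8 h, Snhg12 0.72 and Neat1 0.29 at 8 h. With ribosomal protein scaling, KO against WT became -0.056 at 0 h and -0.33 at 8 h for Snhg6 and -0.39 at 8 h for Malat1, and Snhg6 in KO cells at 4 h became -0.003. No other change past the threshold in either setting turned its direction. The cause was not tested. The counts that follow are over all 10 RNAs, the 3 selected on WT values included, and need not hold the same RNAs. They describe the dependence on processing and are no genotype result for those 3. With the settings used above, KO against WT of the other 7 gave 2 higher and 0 lower at 0 h. It gave 3 higher and 1 lower at 4 h, and 3 higher and 0 lower at 8 h. For the differences of the 4 h and 8 h changes, 0 and 2 of the 7 passed. Shares over all genes stand with each comparison above. In KO against WT at 0 h 4 passed, all higher, against 2 higher with median-ratio scaling, 2 lower (Malat1 and Neat1) with ribosomal protein scaling, 2 higher without the trend and 1 to 3 without a library. At 4 h 5 passed, 3 with median-ratio scaling, 3 without the filter and 3 to 5 without a library, and at 8 h 4 to 6 without a library. In KO cells 6 to 7 passed at 4 h against 0 h without a library, 9 at 8 h against 0 h each time and 3 to 6 at 8 h against 4 h. For the difference of the 4 h change 0 passed, 1 with median-ratio scaling and 0 to 2 without a library. For that of the 8 h change 3 passed, 1 with ribosomal protein scaling and 2 to 5 without a library. Over all genes, ribosomal protein scaling turned the split in KO against WT at 0 h to 322 higher and 4361 lower, and median-ratio scaling turned that of KO at 8 h against 0 h to 4319 higher and 4537 lower. Replicate numbers did not pair the samples (r of -0.083 to 0.051 over 15 pairs of groups). With the replicate block 5 passed at 0 h, 5 at 4 h and 6 at 8 h in KO against WT, 8, 9 and 4 in KO over time, and 0 and 3 for the differences. Depth is unknown, and under about 1 TPM, as for Gas5 after treatment, no further loss can be read.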
